A study of Mus musculus with 2 samples.

Results

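The genes that build and load major histocompatibility complex (MHC) class I molecules, and the catalytic subunits of the immunoproteasome, were followed in mouse thymus. They were chosen by name, as every array probe whose design name equalled H2-K1, H2-D1, H2-T23, B2m, Tap1, Tap2, Tapbp, Psmb8, Psmb9 or Psmb10. This gave 15 probes out of 41174 on the array, for 9 of the 10 genes, and no probe carried the name H2-D1. The study set thymus of mice with a Pla2g10 transgene (Pla2g10-Tg/+), which carries the gene for a secreted phospholipase A2, against thymus of littermate controls. Both groups were C57BL/6 mice, 6 months old, on a standard diet. Each genotype was represented by a pool of RNA from 4 mice, read on 2 two-colour Agilent arrays. On array 1 the transgenic pool was labelled with Cy5 (red) and on array 2 with Cy3 (green), the control pool taking the other dye. Which promoter drives the transgene is unknown here.

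Each genotype thus counted as 1 pooled sample, and both arrays were taken as a technical repeat with the dyes exchanged. The labels name them replicates without stating if a second pair of pools was used, so this is an assumption. No test across animals was possible. Each value is the log2 of the transgenic signal divided by the control signal, and each ± is the SD between the 2 arrays, technical under that assumption. A gene was measured where both arrays read a probe well above background in the same genotype, which left 9397 genes, and its brightest such probe stood for it. Spots well above background made up 28.5% to 34.1% of the array in the 4 channels. The probe for Pla2g10 itself was well above background in 0 of 4 channels, so it gave no check of the labels. All 9 members with a probe passed this filter, and none of their spots was saturated. In pooled tissue, fewer cells of a type and less RNA per cell cannot be told apart.

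MHC class I molecules show peptides from inside the cell to CD8 T cells. A heavy chain (H2-K1, H2-D1 or the non-classical H2-T23, which encodes Qa-1) pairs with the light chain beta-2 microglobulin, encoded by B2m. The peptides are cut by the proteasome, pumped into the endoplasmic reticulum by the transporter TAP (Tap1 and Tap2) and loaded with the help of tapasin (Tapbp). Interferon-gamma exchanges the standard catalytic subunits of the proteasome for Psmb8, Psmb9 and Psmb10, which favours peptides that class I can hold. In the thymus, class I on epithelial and dendritic cells drives the positive and negative selection of CD8 T cells.

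Of the 10 genes, 8 lie on chromosome 17, in or near the MHC, while B2m lies on chromosome 2 and Psmb10 on chromosome 8. Psmb9, Tap1, Psmb8 and Tap2 sit within 34292 bases, and the start sites of Psmb9 and Tap1 face away from each other across 225 bases. The promoters of H2-K1, H2-D1 and B2m and the stretch between Psmb9 and Tap1 are shown because they bring the members' known control elements next to each other. Sequences and positions are from RefSeq on GRCm38.p6, and capitals mark matches on either strand to an NF-kappaB consensus, the interferon-response core AANNGAAA, the cyclic-AMP-response core TGACG and the CCAAT box. The stretches are, in the order shown, chr17:34000348-34000497 on the minus strand, chr17:35262914-35263063 on the plus strand, chr2:122147537-122147686 on the plus strand and chr17:34187331-34187555 on the plus strand. The H2-K1 stretch lies within the annotated span of that gene (chr17:33996012-34000619). The start site used for H2-K1 is thus not the outermost annotated end.
H2-K1: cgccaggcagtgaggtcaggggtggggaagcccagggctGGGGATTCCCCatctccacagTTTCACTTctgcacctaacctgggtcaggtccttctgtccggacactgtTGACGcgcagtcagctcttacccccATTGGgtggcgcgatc
H2-D1: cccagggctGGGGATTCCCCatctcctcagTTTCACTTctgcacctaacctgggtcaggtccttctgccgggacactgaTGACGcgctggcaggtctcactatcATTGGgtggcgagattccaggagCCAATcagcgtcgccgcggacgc
B2m: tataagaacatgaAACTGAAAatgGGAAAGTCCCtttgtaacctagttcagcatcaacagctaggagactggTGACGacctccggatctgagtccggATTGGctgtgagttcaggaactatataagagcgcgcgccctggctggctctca
between Psmb9 and Tap1: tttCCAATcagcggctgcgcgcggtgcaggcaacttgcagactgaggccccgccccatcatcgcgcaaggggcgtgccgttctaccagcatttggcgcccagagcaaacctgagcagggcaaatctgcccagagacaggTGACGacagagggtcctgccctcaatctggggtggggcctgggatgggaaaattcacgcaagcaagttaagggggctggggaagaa

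Promoter windows of 300 bases (250 before to 50 after the start site) were at hand for 9 of the 10 genes, all except Tap2. The NF-kappaB consensus occurred in 3 of the 9 (B2m, H2-D1 and H2-K1), against 8.18% of all 27025 windows. AANNGAAA occurred in 4 of 9, adding H2-T23, against 24.2% of all windows. TGACG occurred in 5 of 9 (B2m, H2-D1, H2-K1, Psmb9 and Tap1), against 21.0%. CCAAT occurred in 7 of 9, all except Psmb8 and Psmb10, against 37.9%. The windows of H2-K1 and H2-D1 were identical at 206 of 228 aligned positions (90.4%), while those of H2-K1 and H2-T23 shared 58.3%. These are matches of letters and not measured binding sites.

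The 9 measured members had a median log2 ratio of 0.11, against -0.0023 over all genes measured. A mean above 0 was found for 6 of the 9 (66.7%), against 49.3% of all genes. H2-K1 stood out by size, at 1.42-fold on the mean of both arrays, and the others lay between -0.10 and 0.19. Above 0 on both arrays were 5 of 9 (H2-K1, B2m, Tapbp, Psmb9 and Psmb10), a share of 55.6%, against 28.3% of all genes. Below 0 on both arrays were 0 of 9, against 29.1% of all genes. The other 4 (H2-T23, Tap1, Tap2 and Psmb8) changed sign between arrays, as 42.6% of all genes did. Over all 15 member probes the lean was weaker. Above 0 on both arrays were 6 (40%), against 27.5% of all probes, while 1 was below 0 on both and 8 changed sign. At 0.2 or more on both arrays was 1 member, H2-K1, against 2.99% of all genes, and at -0.2 or less on both were 0, against 2.34%. A 2-fold rule, a mean of at least 1 with at least 0.5 on each array, took 0 members, against 0.0319% of all genes higher and 0% lower. With 9 genes, several of them neighbours read from the same pools, these counts are a description and carry no test.

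The arrays gave different pictures of the set. On array 1, 5 of 9 members were above 0, near the 52.8% of all genes, with a median of 0.07. Over the 15 member probes the array 1 median was -0.02. On array 2, all 9 were above 0, against 46.4% of all genes, with a median of 0.22, though Psmb8 was above it by only 0.0001. The dye contrast, the array 1 value minus the array 2 value divided by 2, was below 0 for 8 of 9 members, against 43.6% of all genes. A contrast below 0 means that the red over green ratio, averaged over both arrays, was below 1. The ± and the dye contrast are the same difference between arrays on different scales. A steady dye effect of a probe thus widens its ± but cancels from its mean.

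**Figure D1:**
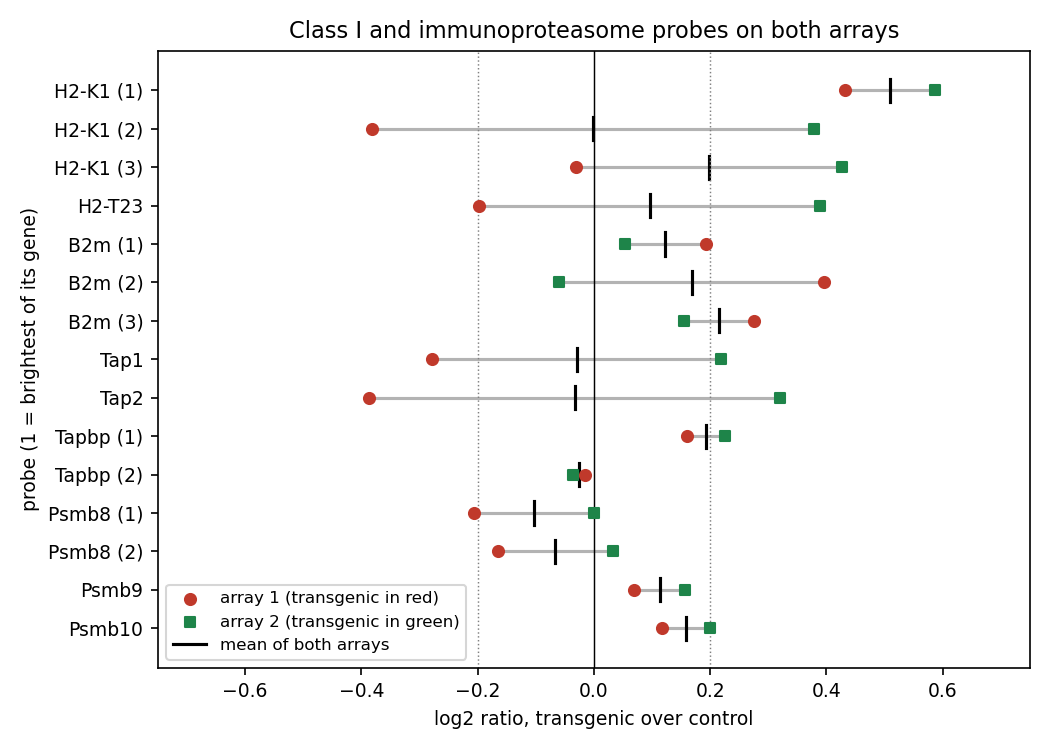
Log2 ratio of transgenic over control (horizontal axis) for each of the 15 member probes (vertical axis, numbered from the brightest of each gene); circles are array 1, squares array 2, black bars their mean, and dotted lines mark 0.2 and -0.2. Only the brightest H2-K1 probe lies beyond 0.2 on both arrays. On opposite sides of 0 lie 8 probes, among them Tap1, Tap2, H2-T23 and the second H2-K1 probe.

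Among the heavy chains, H2-K1 had the highest ratio of the members. Its brightest probe (A_51_P198434, mm8 chr17:33606564-33606623) read 2713 signal units in the transgenic and 2011 in the control pool on array 1, and 2932 against 1952 on array 2. Both transgenic readings lay above both control readings. The log2 ratios were 0.43 and 0.59, with a mean of 0.51 ± 0.11 (SD, n = 2 arrays), more than the SD. Only 42 of the 9397 genes had a higher mean. Centring each array on its median in place of loess gave 1.29 and -0.37 for this probe. The median of all genes was then 0.385 and -0.445, so the probe lay above it on both arrays. In that setting the transgenic over control ratios of both arrays correlated at -0.454 over all genes. Dye and genotype are therefore mixed in that comparison.

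The other probes of H2-K1 did not show the same difference. The second probe (A_52_P474242, mm8 chr17:33609987-33610233) read 230.4 in transgenic and 300.2 in control on array 1, and 296 against 228 on array 2. Its ratios of -0.38 and 0.38 cancelled, with a mean of -0.0012 ± 0.54, and its genotypes overlapped. The third probe (A_52_P50496, mm8 chr17:33609797-33609856) read 183 against 187 on array 1 and 209 against 155 on array 2, which gave -0.03 and 0.43 and a mean of 0.20 ± 0.32. Some transcripts listed for the third probe are also listed for the brightest. Taking the median of the 3 probes for the gene, H2-K1 fell to 0.20, and no member then reached 0.2 on both arrays.

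H2-D1 had no probe of its own name. A probe named LOC547343 (A_51_P496996, mm8 chr17:34874545-34874777) lists the H2-D1 transcript beside those of LOC547343 and LOC56628. Whether these are 1 gene or several was not tested, so the probe was not counted as H2-D1. It read 936 in transgenic and 921 in control on array 1, and 1210 against 774 on array 2. The ratios were 0.02 and 0.64, with a mean of 0.33 ± 0.44, smaller than its SD.

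H2-T23, which encodes the non-classical chain Qa-1 that presents signal peptides of other class I chains, had 1 probe (A_51_P237754, mm8 chr17:35638446-35638682). It read 1249 in transgenic and 1432 in control on array 1, and 1506 against 1151 on array 2. The genotypes overlapped, and the mean was 0.10 ± 0.41. Its dye contrast of -0.29 was larger in size than that of 98.9% of genes.

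B2m encodes the light chain common to class I molecules, and its brightest probe (A_51_P129012, mm8 chr2:121844106-121844165) read 729.9 in transgenic and 639 in control on array 1, and 685 against 660.0 on array 2. Both transgenic readings lay above both control readings, with ratios of 0.19 and 0.05 and a mean of 0.12 ± 0.10. A higher mean was found for 1491 of the 9397 genes. The second probe read 476 against 361 on array 1 and 423 against 441 on array 2, for a mean of 0.17 ± 0.32. The third read 107.0 against 88.4 and 95.7 against 85.9, for a mean of 0.22 ± 0.08. All 3 means were above 0, from 0.12 to 0.22, and the second probe was below 0 on array 2.

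**Figure D2:**
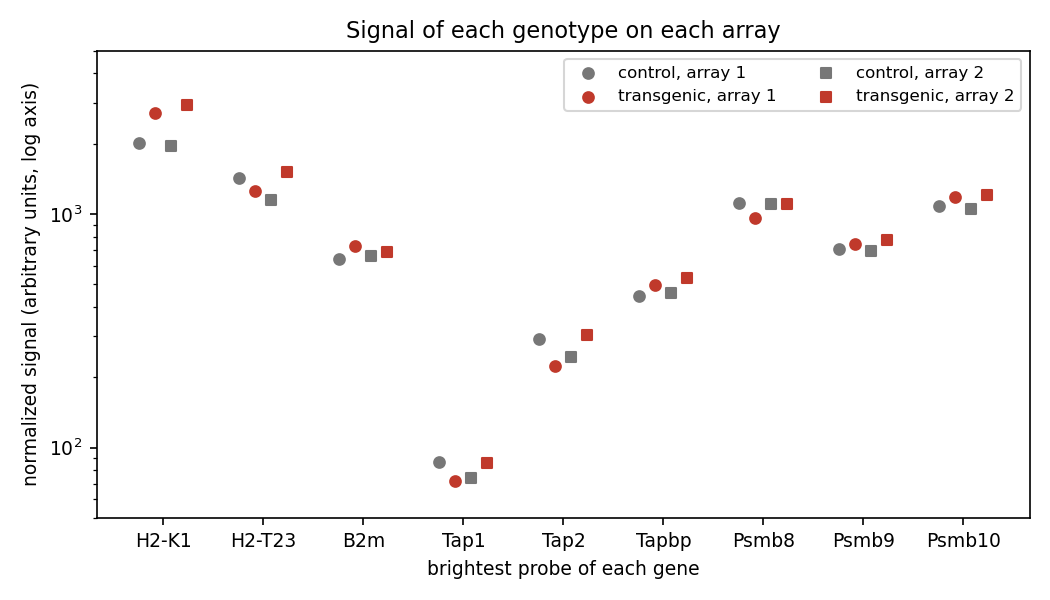
Normalized signal (vertical log axis, arbitrary units that include an offset of 50) of the brightest probe of each measured member (horizontal axis), in control (grey) and transgenic (red) pools on array 1 (circles) and array 2 (squares). Transgenic readings exceed control readings on both arrays for H2-K1, B2m, Tapbp, Psmb9 and Psmb10; heights are not comparable between probes.

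Peptide transport and loading were split, with Tapbp slightly higher in the transgenic pool and both TAP chains near 0 on average. Tap1 (A_51_P100327, mm8 chr17:33804121-33804180) read 71.8 in transgenic and 87.1 in control on array 1, and 86.1 against 74.0 on array 2. Its ratios of -0.28 and 0.22 left a mean of -0.03 ± 0.35. Tap2 (A_52_P86176, mm8 chr17:33825052-33825639), the partner chain of the transporter, read 223 against 291 and 305 against 244, with ratios of -0.39 and 0.32 and a mean of -0.03 ± 0.50. For both TAP chains the sign followed the dye, and their dye contrasts of -0.25 and -0.35 were larger in size than those of 97.7% and 99.6% of genes. No genotype difference was called for Tap1 or Tap2. Their means lay within the SD, but a dye effect can widen the SD without moving the mean, so it sets no limit of detection. The Tap1 readings also lie close to the offset of 50, which shrinks its ratios, and with an offset of 0 they were -0.74 and 0.62.

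Tapbp encodes tapasin, which holds empty class I molecules at the transporter. Its brightest probe (A_51_P304500, mm8 chr17:33539531-33539590) read 497 in transgenic and 444 in control on array 1, and 534 against 457 on array 2. Both transgenic readings were above both control readings, with a mean of 0.19 ± 0.05. A higher mean was found for 654 of the 9397 genes. The second probe, well above background in 3 of 4 channels, read 77.7 against 78.6 and 72.3 against 74.2, with a mean of -0.03 ± 0.01. With the median of both probes, Tapbp had a ratio of 0.08.

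Of the immunoproteasome subunits, Psmb9 and Psmb10 were slightly higher in the transgenic pool on both arrays and Psmb8 was not. Psmb8 encodes the subunit that replaces Psmb5 and cuts after bulky hydrophobic residues. Its brightest probe (A_51_P345366, mm8 chr17:33811095-33811419) read 964 in transgenic and 1112 in control on array 1, and 1100.2 in both pools on array 2. Its mean was -0.10 ± 0.15, and that of its second probe -0.07 ± 0.14, both smaller than their SD. Psmb9 (A_51_P369803, mm8 chr17:33792517-33792576), which replaces Psmb6, read 743 against 708 and 772 against 692. The transgenic readings were above the control readings, by 0.07 and 0.16, with a mean of 0.11 ± 0.06. Psmb10 (A_52_P570266, mm8 chr8:108824906-108824965), which replaces Psmb7, read 1178 against 1086 and 1202 against 1046, with ratios of 0.12 and 0.20 and a mean of 0.16 ± 0.06. Both means exceeded their SD between arrays, though by small amounts. Of the 9397 genes, 1648 had a higher mean than Psmb9 and 963 a higher mean than Psmb10.

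The arrays read RNA, so the exchange of subunits in the proteasome was not measured. At the RNA level, the ratio of each standard subunit was subtracted from that of the immunosubunit that replaces it. Psmb5 had a mean of -0.10 ± 0.09, Psmb6 of 0.01 ± 0.07 and Psmb7 of -0.06 ± 0.27. Psmb8 minus Psmb5 was -0.05 and 0.04 on the arrays, a mean of -0.01 ± 0.06. Psmb9 minus Psmb6 was 0.11 and 0.10, a mean of 0.10 ± 0.01, and Psmb10 minus Psmb7 was 0.36 and 0.07, a mean of 0.22 ± 0.21. Psmb9 and Psmb10 thus lay above their standard partners on both arrays, Psmb10 by about its SD, and Psmb8 did not.

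Class I heavy chain genes are close copies, so a probe for 1 can bind transcripts of others. The files carry no probe letters, so cross-hybridisation was not tested. All probes named or described as class I heavy chains were gathered after the members' values were seen: 25 of 49 were measured, the 4 of H2-K1 and H2-T23 included. Their median was -0.0009 on array 1 and 0.39 on array 2, for a median mean of 0.16. The dye contrast was below 0 in 21 of the 25 (84%), against 45.3% of all probes. Above 0 on both arrays were 9 of the 25 (36%), against 27.5% of all probes, and below 0 on both were 0.

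Of the 21 class I probes that are not members, 3 (14.3%) passed 0.2 on both arrays, against 2.76% of all probes. LOC56628, described as a class I antigen of the K locus, had ratios of 0.41 and 0.43, a mean of 0.42 ± 0.01. EG630499, which RefSeq now names H2-K2, had 0.36 and 0.43, a mean of 0.39 ± 0.05. A probe of H2-Q1, a Qa region gene, had 0.26 and 0.32, a mean of 0.29 ± 0.04, while the 2 other H2-Q1 probes measured had means of -0.07 and 0.14. Whether these probes and that of H2-K1 read 1 transcript or several was not tested.

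Repeated spots gave the precision within an array. A probe for H2-Q7 printed 10 times on each array averaged -0.05 ± 0.06 (SD over spots) on array 1 and 0.41 ± 0.05 on array 2. A probe described as M region locus 2 averaged -0.0009 ± 0.04 over 10 spots and 0.39 ± 0.03 over 9 spots. Over 18 bright probes with at least 5 spots, the median SD between spots was 0.061 on array 1 and 0.054 on array 2. For the H2-Q7 and M region probes, spots on 1 array thus lay closer together than the averages of the 2 arrays. That comparison was not made for the 18 probes as a set.

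**Figure D3:**
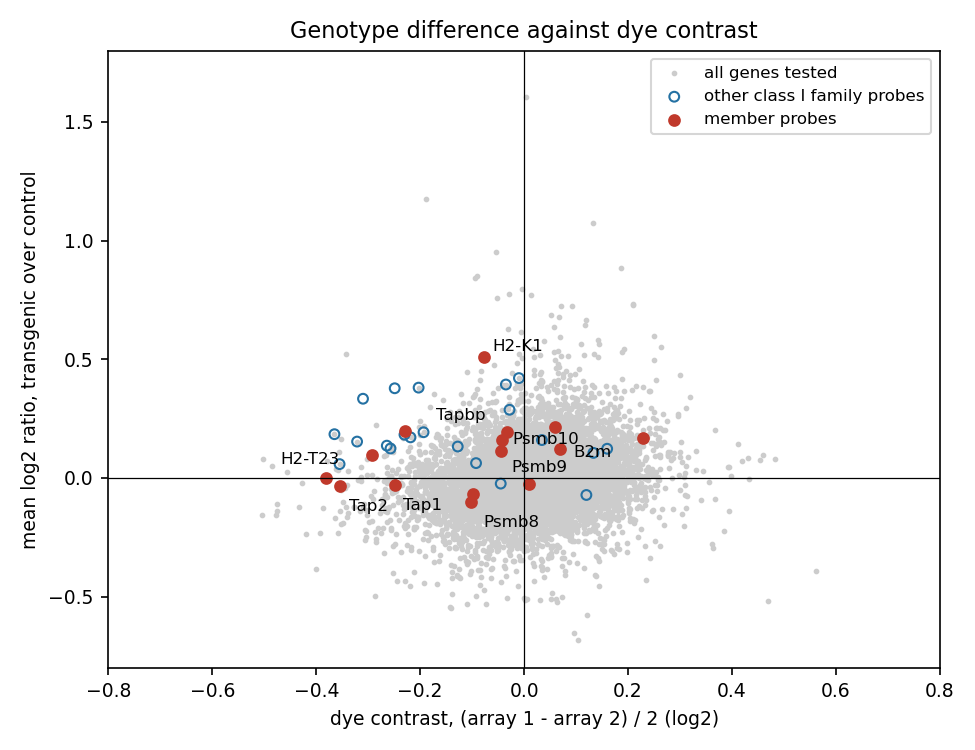
Mean log2 ratio of transgenic over control (vertical axis) against dye contrast (horizontal axis, log2) for all 9397 genes measured (grey), the 15 member probes (red, the brightest of each gene named) and the 21 other class I probes (open blue circles). H2-K1 lies at 0.51 with a contrast of -0.08, whereas Tap1, Tap2 and H2-T23 lie far to the left with means between -0.03 and 0.10.

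Other genes of the pathway gave few differences of size. For scale, 28.3% of all genes were above 0 and 29.1% below 0 on both arrays. At 0.2 or more on both were 2.99%, and at -0.2 or less 2.34%. Of 33 other class I and class I-like genes, 12 were measured, with a median of 0.14, 4 above 0 on both arrays, 1 below 0 on both, and 1 at 0.2 or more on both (H2-K2). Of 16 genes that load or trim peptides, 15 were measured, with a median of 0.02, 3 above 0 and 4 below 0 on both arrays, and 0 past 0.2 either way. The median of this list became -0.02 with median centring. The largest means by size there were Npepps, a cytosolic aminopeptidase, at -0.27 ± 0.12, and the chaperone calnexin (Canx) at 0.27 ± 0.21, whose 3 probes ran from -0.16 to 0.27. The aminopeptidases Lnpep and Lap3 followed at 0.14 ± 0.08 and -0.13 ± 0.02.

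Of the other proteasome genes, Psme2 had the highest ratio. Of 9 such genes, all measured, 3 were above 0 and 2 below 0 on both arrays, against 28.3% and 29.1% of all genes. Their median was -0.01, which was 0.0009 in the scanner software's ratios. Psme2 and Psme1 encode the PA28 cap that interferon-gamma raises with the immunosubunits, and they had means of 0.20 ± 0.01 and 0.13 ± 0.17. The assembly factor Psmg2 had -0.09 ± 0.04 and the activator Psme4 had 0.08 ± 0.02. Psmb11, the catalytic subunit of the thymoproteasome of cortical epithelium, had -0.05 ± 0.16.

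Of 32 genes that regulate class I, 25 were measured, with a median of 0.09. On both arrays 12 were above 0 and 6 below 0, against 28.3% and 29.1% of all genes, and 0 were past 0.2 either way. The median was 0.05 with median centring and 0.13 in the scanner software's ratios. Irf1, an interferon-induced factor that binds class I promoters, had a mean of 0.11 ± 0.01. The interferon regulatory factors Irf8 and Irf9 had 0.19 ± 0.06 and 0.17 ± 0.03. Rfxap and Rfxank, parts of the RFX complex that binds MHC promoters, had -0.24 ± 0.22 and -0.23 ± 0.09. No probe was named Nlrc5, the class I transactivator.

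Of 46 interferon-induced genes, 28 were measured, with a median of 0.09, which was 0.06 with median centring and 0.15 in the scanner software's ratios. On both arrays 16 of the 28 were above 0 and 3 below 0, where 28.3% and 29.1% of all genes were. At 0.2 or more on both arrays were 4 of the 28, against 2.99% of all genes. Ifit3 had a mean of 0.30 ± 0.11, Usp18, which removes ISG15 from proteins, 0.29 ± 0.10, Rtp4 0.28 ± 0.09 and the GTPase Iigp1 0.26 ± 0.06. None was at -0.2 or less on both arrays. These lists share the pools and arrays with the members.

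**Figure D4:**
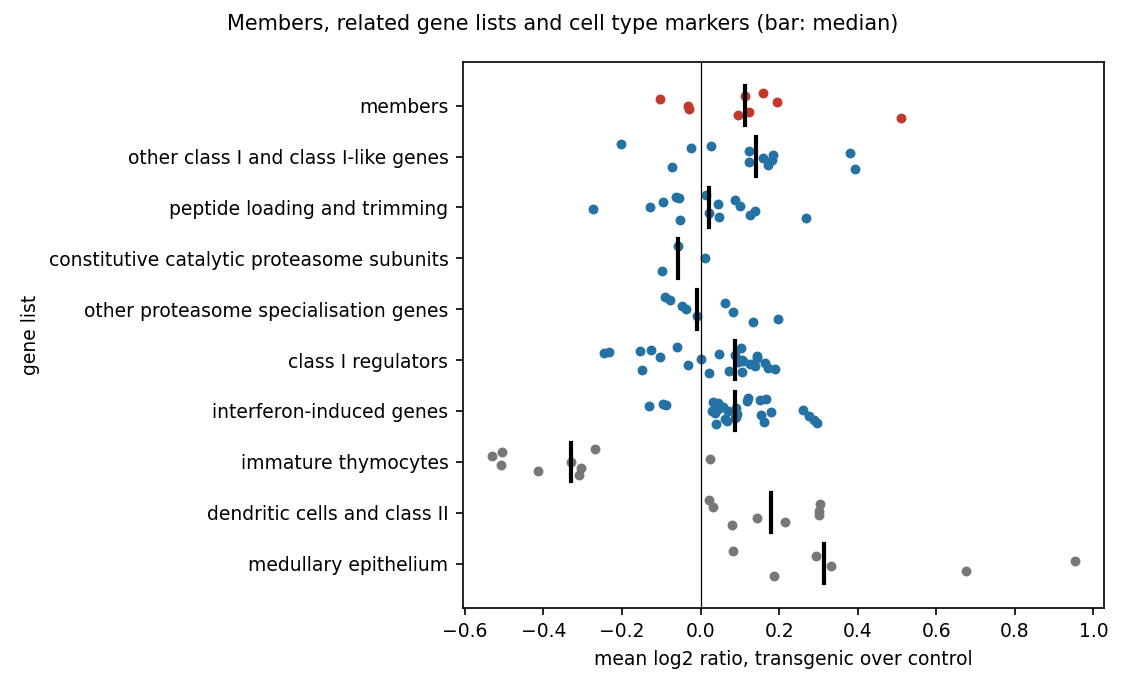
Mean log2 ratio of transgenic over control (horizontal axis) of each measured gene in the members (red), 6 related lists (blue) and 3 cell type marker lists (grey), named on the vertical axis; the bar is the list's median. The members' median of 0.11 lies among the related lists, while immature thymocyte markers lie at a median of -0.33 and medullary epithelium markers at 0.31.

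Several markers of the cells that make up the thymus had larger ratios than most members. The tissue label was borne out by immature thymocyte markers, of which 9 of 10 were measured and Rag2 was not well above background. Their median was -0.33. At -0.2 or less on both arrays were 8 of 9, all except Cd4 at 0.02, against 2.34% of all genes. Their summed signal was 20447 and 20435 in the transgenic and 26463 and 26767 in the control pool. The chemokine receptor Ccr9 had a mean of -0.53 ± 0.10, Cd8a -0.51 ± 0.0007, and Dntt, which adds bases at receptor joints, -0.41 ± 0.20.

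Dendritic cell and class II genes and medullary epithelium markers leaned the other way, while macrophage markers, given below, did not. Of 11 dendritic cell and class II genes, 8 were measured, all with means above 0 and a median of 0.18. As with the members, the arrays differed, with a list median of 0.07 on array 1 and 0.28 on array 2. On both arrays 5 of the 8 were above 0, against 28.3% of all genes, and the other 3 changed sign between arrays. H2-Ab1 had 0.30 ± 0.12, with its 4 probes from 0.05 to 0.30, and H2-DMb1 had 0.30 ± 0.14. The defining markers Itgax, Flt3 and Zbtb46 were not well above background. The summed signal of the 8 measured genes was 2548 and 2776 in the transgenic against 2309 and 2173 in the control pool. Of 9 medullary epithelium markers, 6 were measured, with a median of 0.31, among them Ccl21a at 0.95 ± 0.08, Krt5 at 0.68 ± 0.10 and Krt14 at 0.33 ± 0.14. Their summed signal was 1164 and 1137 in the transgenic against 772 and 842 in the control pool.

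Mature T cell markers ran both ways. Of 10, 8 were measured, with a median of 0.13. On both arrays 3 were at 0.2 or more and 1 at -0.2 or less, against 2.99% and 2.34% of all genes. Ms4a4b had 0.67 ± 0.17, Ccr7 0.45 ± 0.15 and Itgb7 0.38 ± 0.06, and Klf2 had -0.54 ± 0.20, with its other probe at 0.59. Their summed signal was lower in the transgenic pool, at 4562 and 4398 against 6088 and 5127.

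The remaining lists had medians of 0.15 for cortical epithelium (7 of 8), -0.02 for macrophages (7 of 9), 0.02 for endothelium (2 of 7) and 0.78 for fat cells (5 of 9). All 5 fat cell genes were at 0.2 or more on both arrays, against 2.99% of all genes. Of 7 B cell markers only Cd79b was measured, at 0.13 ± 0.04. The part of these cell types in the members' ratios was not tested.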

How the data were processed

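Thymus RNA of 1 pool of 4 mice per genotype was compared on 2 Agilent two-colour arrays. The deposited scanner files hold mean and local background intensity per channel, uncorrected, on a linear scale. Per the file headers, the software was Feature Extraction 9.5.1.1. The same files and the deposited series table hold log10 ratios of red over green made by that software. The probe positions are on mm8, per the file headers, and no annotation of mm8 was used, so exons and introns are not given.

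Mean intensities were background corrected (normexp, offset 50) and normalized by loess within each array in limma 3.58.1 (R 4.3.3). Array 2 was turned, so each ratio is transgenic over control, and spots of a probe were averaged. Outlier spots (46 and 37) and control spots were left out. Before turning, the arrays correlated at -0.271 over 11302 spots. Probes other than the members' were named through RefSeq by accession (23363), symbol (6729) or synonym (2919), and 8148 kept the design name.

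The members and lists were chosen with earlier results of these data known. Within each list the text names the genes at 0.2 or more (or -0.2 or less) on both arrays or, where these were more than 4 or none, the 4 with the largest means by size, plus all members, Psmb5, Psmb6, Psmb7, Psmb11, Nlrc5 and Irf1. A few genes picked this way are left unreported. The calculations were tested on simulated data. The alternatives were other background corrections, median centring, the software's ratios, other filters, the median over probes and leaving out each array.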

Additional observations from a re-analysis of the deposited data

How the results depend on the processing

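The members' median kept its sign under every alternative tried, from 0.051 with median centring to 0.14 with the software's ratios, and was 0.07 without replicate 2 and 0.22 without replicate 1. The mean of both arrays kept its sign for each of the 9 members. With median centring in place of loess, the count of members above 0 on both arrays went from 5 to 0 and that at 0.2 or more from 1 to 0. Under it the turned arrays correlated at -0.454, 20 genes were at 0.2 or more and 10 at -0.2 or less on both arrays (66.7% of calls higher), against 281 and 220 by loess (56.1%). Taking the median over the probes of a gene, 4 members were above 0 and 0 members reached 0.2 on both arrays. With an offset of 0, 8.09% of all genes reached 0.2 on both arrays, and 9.29% did in the software's ratios, so the count at 0.2 reads differently by scale. Each ratio already pairs both genotypes on 1 array, but with 1 pool per genotype no test over pairs was possible. With 2 arrays, taken to hold 1 pool a genotype, the spread between arrays mixes dye effects with noise. No limit of detection could be set from it, and variation between mice was not measured.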
